A study of Rattus norvegicus with 6 samples.

Results

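The genes described here encode growth factors that act through receptor tyrosine kinases, and the receptors themselves. They comprise the fibroblast growth factor (FGF), platelet-derived growth factor (PDGF), ErbB, hepatocyte growth factor, vascular endothelial growth factor (VEGF) and midkine families. They were taken by gene symbol from the count table of rat brain RNA sequencing, where 55 of 19382 rows matched the names, and 2 further matching rows were left out by the rule. Of the 55 genes, 36 encode secreted ligands, 13 encode receptors or receptor-like proteins, 4 encode intracellular FGF homologous factors, and 2, Fgfr1op and Fgfr1op2, were matched only because their names derive from a fusion partner of an FGF receptor. The libraries came from 2 groups of 3, a control group and a hypoxia-ischemia (HI) group. The HI group consisted of SD rats exposed to 2.5 h of ischemia-hypoxia at 7 days of age, a model of brain injury at birth. All samples were labelled brain tissue. The sources used here give no region, no interval between injury and sampling and no age, sex or handling of the controls. Whether each library came from a separate animal is not stated, so the p-values reflect how far these libraries scatter, and that scatter may be partly technical.

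A receptor tyrosine kinase is a membrane protein that pairs with another when its ligand binds, phosphorylates its own tail and so recruits adaptors that start the Ras-MAPK and PI3K-Akt cascades. In the brain, FGFs and ErbB ligands regulate the growth of astrocytes and oligodendrocyte precursors, PDGF-B attracts pericytes to vessels, VEGFs act on endothelium, and pleiotrophin and midkine are heparin-binding factors of the developing nervous system. Not every gene with such a name belongs to that scheme. The FGF homologous factors stay inside the cell and bind voltage-gated sodium channels, and the product of Fgfrl1 binds FGFs but lacks a kinase domain.

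Libraries held 13922663 to 14927469 reads each, and levels are given as CPM, a read count scaled to library size and composition (by the TMM method). Libraries differed in their content of tissue markers in ways that cut across the groups, and several genes below followed the same libraries. All 8 markers of the dorsal telencephalon, among them the cortical transcription factor Emx1, had reads. Summed, they stood at 1097 and 1207 CPM in controls 1 and 2, at 194 CPM in control 3 and between 100.2 and 171 CPM in the HI libraries. The 10 choroid plexus markers, led by the thyroxine carrier Ttr, summed to 16.8, 2182 and 7.86 CPM in controls 1, 2 and 3 and to 183, 8181 and 15340 CPM in HI 1, 2 and 3. Y-linked genes had 1356 to 1824 reads in control 3, HI 2 and HI 3 and 1 to 3 reads in the other libraries. Of 10 markers of microglia, the resident macrophages of the brain, 8 were called higher in HI. The list summed to 349 to 584 CPM in HI against 140 to 205 CPM in the controls. P2ry12 and Tmem119 were not called, with log2 fold changes of -0.13 and 0.47 (edgeR adjusted p = 0.714 and 0.260). No listed marker with a row in the table was at 0 in every library. The part of these differences in the results that follow was not tested, except where a value is given.

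**Figure D1:**
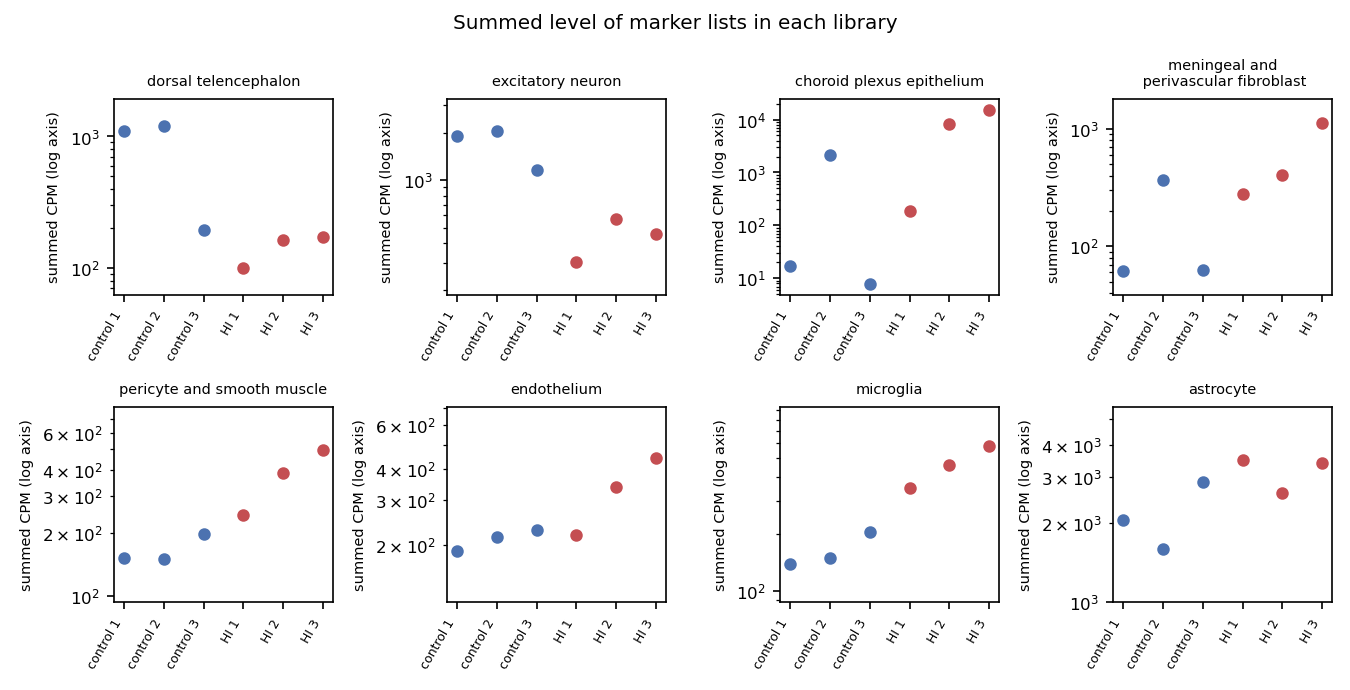
Summed CPM of 8 marker lists (log axis, each with its own range) in each of the 3 control (blue) and 3 HI (red) libraries, 1 point a library. The dorsal telencephalon list is low in control 3 as in the HI libraries, and the choroid plexus list is high in control 2, HI 2 and HI 3.

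Of the 55 genes, 40 had enough reads to be tested, and 8 of these 40 (20%) passed. The rises were in Fgf1, Erbb2 and Fgfrl1, and the falls in Fgf13, Fgf12, Nrg3, Pdgfa and Met. Among all 14959 genes tested 13.9% passed, 6.83% higher and 7.04% lower in HI, where passing means a Benjamini-Hochberg adjusted p below 0.05 in the edgeR quasi-likelihood test. The corresponding shares among the 40 genes were 7.5% higher and 12.5% lower, or 3 and 5 genes, and nothing about the set is read from such small counts. None of the 8 passed when control 1, control 2 or HI 2 was left out. The median log2 fold change of the 40 genes was 0.10, against 0.04 over all tested genes. The 3 HI libraries lay wholly above or below the 3 controls for 14 of the 40 genes (35%), compared with 42.3% of all genes. They lay above for 6 genes (21.5% of all genes) and below for 8 (20.8% of all genes). By family, all 5 FGF receptors had positive fold changes and all 4 FGF homologous factors negative ones.

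**Figure D2:**
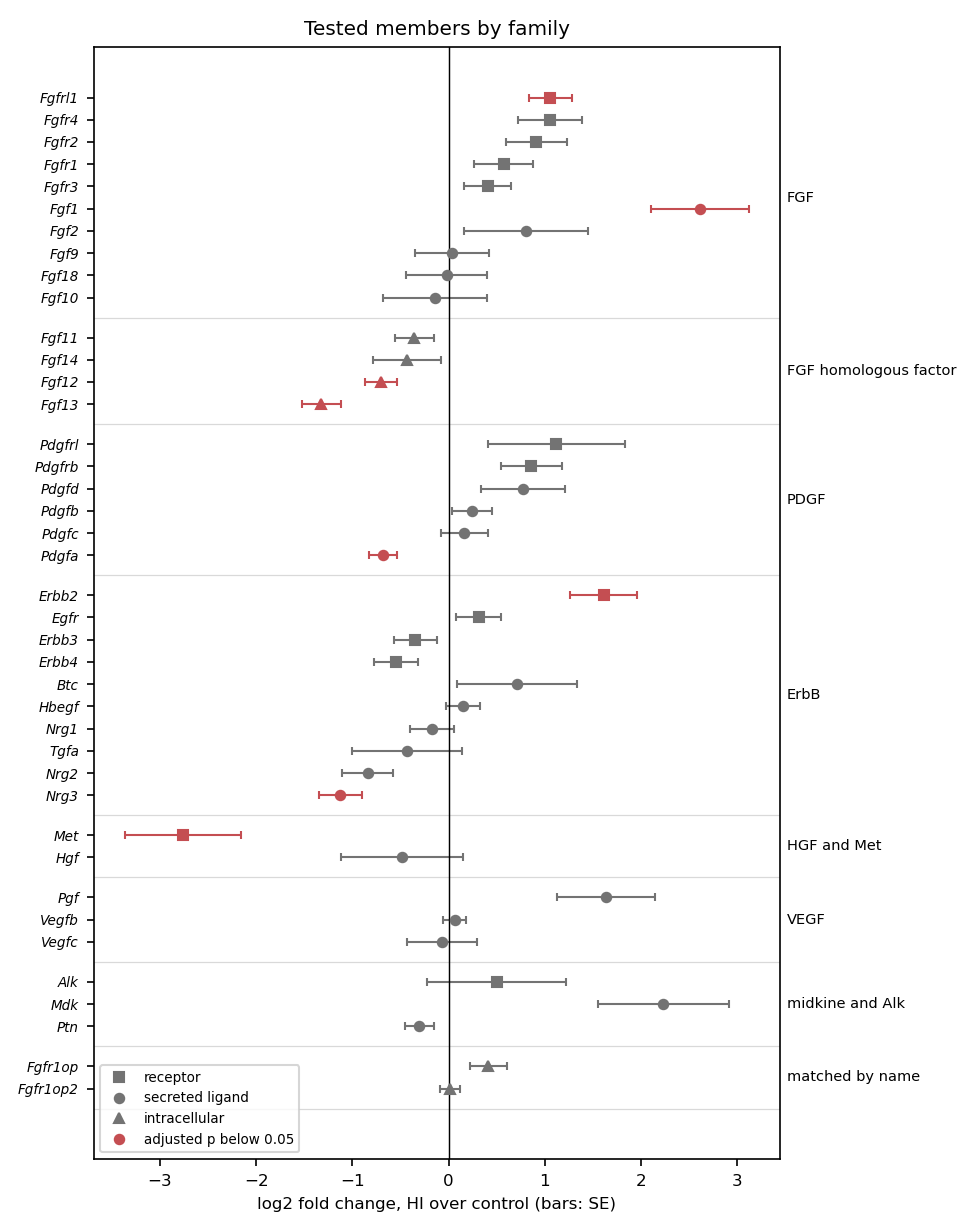
Log2 fold change (HI over control) with its SE from the edgeR fit for the 40 tested genes, grouped by family, with squares for receptors, circles for secreted ligands and triangles for intracellular proteins. Red marks the 8 genes past the adjusted threshold, which reach from Met at -2.76 to Fgf1 at 2.61.

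Of 5 secreted FGFs with enough reads to be tested, Fgf1 was the one that passed. It encodes the acidic FGF, a ligand able to bind every FGF receptor. Its level was 3.48, 3.09 and 2.25 CPM in controls 1, 2 and 3 and 7.69, 16.6 and 29.7 CPM in HI 1, 2 and 3. Every HI library was above every control, and the HI libraries were spread widely, with HI 1 nearest to the controls. The log2 fold change was 2.61 ± 0.51 (SE), a 6.11-fold rise (edgeR adjusted p = 0.0294). As in any bulk sample, more RNA per cell and more cells that carry it cannot be told apart. The choroid plexus sums had the same order among the HI libraries, and control 2, at 2182 CPM of those markers, had 3.09 CPM of Fgf1. That list was added to the fit as a second term after the data were seen. The term was each library's median of log2(CPM + 0.5) over the list genes, not the sum. The log2 fold change of Fgf1 was then 1.69 (edgeR adjusted p = 0.155), and the part of these markers in the rise was not otherwise tested. Fgf2, the basic FGF made by astrocytes, had 3 to 13 reads in the controls and 10 to 27 in HI. Its log2 fold change of 0.80 ± 0.64 did not pass (edgeR adjusted p = 0.399). Fgf9, a neuronal ligand with mitogenic action on glia, ran from 4.42 to 8.09 CPM in the controls and from 4.12 to 9.83 CPM in HI, so the groups overlapped over their whole range. Fgf10 and Fgf18 stood at 4 to 15 and 12 to 27 reads in the controls and at 8 to 13 and 17 to 27 reads in HI. For Fgf9, Fgf10 and Fgf18 the sign of the fold change varied with the settings of the fit.

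The other 12 secreted FGFs, with Nrg4, Areg and Ereg, had too few reads to be tested. These 15 genes had 0 to 14 reads in a library. Of the 15, 12 stayed under 10 reads in every library. Fgf5 had 3, 6 and 5 reads in controls 1, 2 and 3 against 1, 13 and 14 in the HI libraries, Fgf17 had 5, 1 and 0 against 14, 4 and 1, and Fgf21, an endocrine FGF released under metabolic stress, had 4, 6 and 2 against 10, 8 and 8. Ereg, which encodes the ErbB ligand epiregulin, had 0 reads in all 6 libraries, and a count of 0 allows up to 3 reads, or 0.182 to 0.227 CPM, for counting error alone. For Fgf21 and for Fgf19, with 0, 0 and 1 reads against 5, 2 and 2, every HI library was above every control. For the rest the groups overlapped. None of these genes was tested, so the reads establish neither a difference nor its absence.

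All 4 FGF homologous factors had negative fold changes, and 2 of them passed. Fgf13, which also stabilises microtubules in growing neurons, stood at 346, 292 and 204 CPM in controls 1, 2 and 3 and at 105, 119 and 113 CPM in HI 1, 2 and 3. The HI libraries lay close together and the controls did not. Its log2 fold change was -1.32 ± 0.20 (edgeR adjusted p = 0.0220), with no overlap between the groups. Fgf12, a modulator of sodium channel inactivation, fell from 105, 124 and 107 CPM in the controls to 73.8, 79.2 and 54.0 CPM in HI. Its log2 fold change was -0.70 ± 0.16 (edgeR adjusted p = 0.0398). Fgf11 had 70.8, 80.7 and 92.1 CPM in the controls and 73.7, 71.2 and 45.6 CPM in HI. Fgf14, mutated in an inherited ataxia, had 31.0, 25.5 and 38.4 CPM against 33.8, 23.8 and 12.6 CPM. Both overlapped between the groups. HI 3 was below all controls for both genes, HI 2 only for Fgf14, and neither gene passed (edgeR adjusted p = 0.254 and 0.410). The negative sign of all 4 held under each scaling tried. With the choroid plexus list as a second term of the fit, an alternative added after the data were seen, that of Fgf14 turned (log2 fold change 0.06). Beside these neuronal genes, the excitatory neuron list summed to 1165 to 2050 CPM in the controls against 301 to 567 CPM in HI. Of its 8 genes 3 passed as lower. The inhibitory neuron list summed to 368 to 1133 CPM in the controls against 526 to 1146 CPM in HI. Of its 8 genes 0 were called by edgeR and 1 by DESeq2. The part of either list in the falls was not tested.

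The FGF receptors had log2 fold changes between 0.40 and 1.06, and 1 of the 5 passed. Fgfrl1 was at 10.2, 10.8 and 13.9 CPM in the controls and at 18.1, 28.4 and 26.3 CPM in HI. The groups were apart, and the log2 fold change was 1.06 ± 0.22, a 2.08-fold rise (edgeR adjusted p = 0.0339). Fgfr1, the receptor of neurons and many glia, stood at 139, 65.6 and 100.8 CPM in the controls and at 115, 142 and 196 CPM in HI. Control 1 was above HI 1, and the log2 fold change of 0.57 ± 0.31 did not pass (edgeR adjusted p = 0.228). Fgfr2, found in oligodendrocyte lineage cells and astrocytes, had 44.8, 54.5 and 63.5 CPM against 59.4, 104.8 and 142 CPM. Here HI 2 and HI 3 stood out and HI 1 lay within the controls, with a log2 fold change of 0.91 ± 0.31 (edgeR adjusted p = 0.0905). Fgfr3, an astrocyte receptor, had 79.1, 70.5 and 124.5 CPM against 98.8, 128.7 and 135 CPM, so that control 3 lay among the HI libraries (edgeR adjusted p = 0.266). Fgfr4 rested on few reads, 7, 8 and 7 in controls 1, 2 and 3 and 16, 18 and 20 in HI 1, 2 and 3. Its groups were apart and narrow, yet the log2 fold change of 1.05 ± 0.33 did not pass (edgeR adjusted p = 0.0736). The astrocyte marker list summed to 1593 to 2883 CPM in the controls against 2619 to 3494 CPM in HI, with 1 of its 10 genes called, and its part in these values was not tested.

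**Figure D3:**
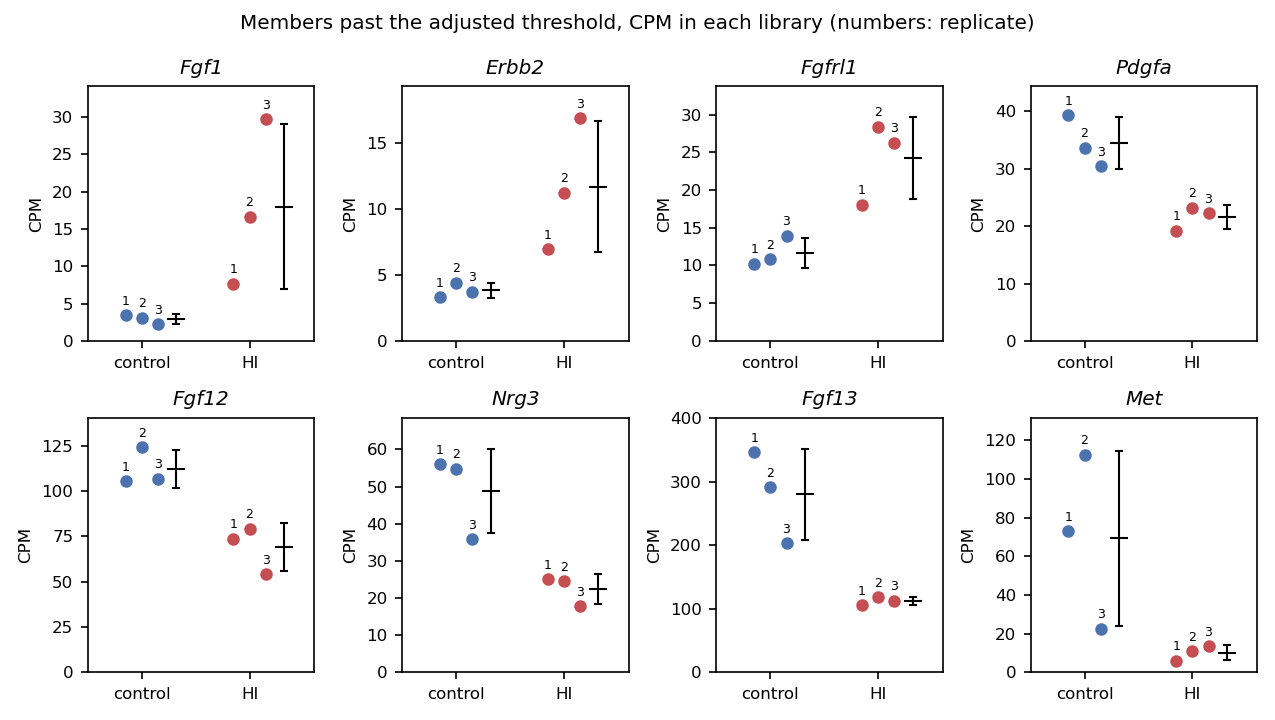
CPM of the 8 genes past the adjusted threshold in each library (points, numbered by replicate), with the mean and SD of the 3 libraries of a group (black). No panel has a control inside the range of the HI libraries, and control 3 is the control nearest to HI for Met, Nrg3, Fgf13, Pdgfa and Fgfrl1.

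Promoter windows of 300 bases, 250 before and 50 after the annotated start, were available from RefSeq (build GRCr8) for 44 of the 55 genes and for all 8 genes that passed. They are printed for the 3 genes that rose, Fgf1, Fgfrl1 and Erbb2, to show whether genes that moved together share short motifs, 5′ to 3′ on the strand of the gene. Capitals mark matches on either strand to the AP-1 site TGANTCA, the cAMP response element TGACGTCA, the hypoxia response element core ACGTG, the E-box CACGTG, the STAT site TTCNNNGAA and the CCAAT box.
Fgf1 (chr18:30961344-30961643, minus strand): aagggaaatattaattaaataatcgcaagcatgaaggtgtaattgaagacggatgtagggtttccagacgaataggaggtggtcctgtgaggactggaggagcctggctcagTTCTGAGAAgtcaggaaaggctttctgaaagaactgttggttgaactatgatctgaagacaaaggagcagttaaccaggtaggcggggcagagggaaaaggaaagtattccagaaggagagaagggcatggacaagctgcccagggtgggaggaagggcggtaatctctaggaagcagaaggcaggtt
Fgfrl1 (chr14:1166285-1166584, minus strand): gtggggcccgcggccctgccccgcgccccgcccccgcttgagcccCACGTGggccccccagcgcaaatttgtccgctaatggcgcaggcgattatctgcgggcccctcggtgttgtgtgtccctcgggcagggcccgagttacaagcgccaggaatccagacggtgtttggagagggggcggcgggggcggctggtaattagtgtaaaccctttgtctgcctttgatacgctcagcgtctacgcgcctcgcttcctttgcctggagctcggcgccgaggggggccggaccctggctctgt
Erbb2 (chr10:83907351-83907650, plus strand): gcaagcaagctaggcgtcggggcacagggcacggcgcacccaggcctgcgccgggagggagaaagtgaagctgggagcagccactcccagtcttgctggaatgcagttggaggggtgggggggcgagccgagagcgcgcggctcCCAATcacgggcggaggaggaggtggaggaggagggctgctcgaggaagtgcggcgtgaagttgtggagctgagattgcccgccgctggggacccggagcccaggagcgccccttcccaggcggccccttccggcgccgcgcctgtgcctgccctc
The Fgf1 window had 1 match to the STAT motif, starting 138 bases before the start, and such a match occurs in 8.87% of all 33469 promoter windows of this length. The Fgfrl1 window, 68.0% G and C, had 1 E-box, 205 bases before the start, which contains the hypoxia core on each strand. The hypoxia core was present in 19.3% of all windows and the E-box in 6.42%. The Erbb2 window, 71.3% G and C, had a CCAAT box, as did 37.5% of all windows. Of the motifs searched the 3 windows had only the GC box in common (GGGCGG, not capitalised), which was found in 33.1% of all windows and in 26 of the 36 windows of tested genes described here. None of them had an AP-1 site or a cAMP response element, which 7.33% and 1.83% of all windows hold. The median of all windows was 51.7% G and C, and that of Fgf1 had 48.3%. A match shows only that the letters are present, and the start that is used in these samples is not known.

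The falling gene Fgf12 has 2 annotated starts, which give proteins with different amino termini. Their windows are shown because reads were counted over the whole gene and do not separate them.
Fgf12, first window (chr11:85501697-85501996, plus strand): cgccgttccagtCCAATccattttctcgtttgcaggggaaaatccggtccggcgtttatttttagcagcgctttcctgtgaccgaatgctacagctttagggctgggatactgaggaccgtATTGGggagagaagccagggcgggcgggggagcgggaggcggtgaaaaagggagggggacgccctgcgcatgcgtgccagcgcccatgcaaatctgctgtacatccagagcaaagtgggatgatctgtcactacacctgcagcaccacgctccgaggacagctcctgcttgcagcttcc
Fgf12, second window (chr11:85801508-85801807, plus strand): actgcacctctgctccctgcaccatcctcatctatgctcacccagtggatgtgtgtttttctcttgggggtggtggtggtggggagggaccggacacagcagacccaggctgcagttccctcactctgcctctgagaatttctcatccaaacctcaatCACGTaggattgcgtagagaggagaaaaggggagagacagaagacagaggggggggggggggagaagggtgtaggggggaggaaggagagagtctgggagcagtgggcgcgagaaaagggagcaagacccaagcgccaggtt
The first had 19 CpG dinucleotides, 2 CCAAT boxes and 2 overlapping GC boxes, whereas the second had 6 CpG dinucleotides, no GC box and 1 hypoxia core on the opposite strand. The fall in Fgf12 cannot be assigned to either start.

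In the PDGF family the ligand Pdgfa fell. Of its receptor genes only Pdgfrb and the receptor-like Pdgfrl are described here, with positive fold changes that did not pass. Pdgfa, a mitogen for oligodendrocyte precursors made by neurons and astrocytes, stood at 39.4, 33.6 and 30.5 CPM in the controls and at 19.2, 23.2 and 22.3 CPM in HI. All HI libraries were below all controls, with a log2 fold change of -0.68 ± 0.15 (edgeR adjusted p = 0.0348) and a fall to 0.625 of the control level. The oligodendrocyte precursor marker list, which leaves out the PDGF receptors, summed to 565 to 684 CPM in the controls against 481 to 594 CPM in HI, with 0 of 8 genes called by edgeR, 1 at an unadjusted p below 0.05, 1 called by DESeq2 and 0 by limma-voom. The endothelial ligand Pdgfb had 14.3 to 18.6 CPM in the controls against 14.9 to 23.7 CPM in HI. Pdgfc and Pdgfd, ligands that need proteolytic activation, had log2 fold changes of 0.16 ± 0.25 and 0.77 ± 0.43. None of these 3 passed (edgeR adjusted p from 0.243 to 0.663).

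Pdgfrb, the receptor of pericytes, had 35.7, 44.3 and 42.8 CPM in controls 1, 2 and 3 and 44.5, 67.4 and 110.5 CPM in HI 1, 2 and 3. The groups were apart, but HI 1 exceeded control 2 only narrowly, and the log2 fold change of 0.86 ± 0.32 did not pass (edgeR adjusted p = 0.107). The summed pericyte and smooth muscle list had the same order among the HI libraries. Its sums were 150 to 197 CPM in the controls and 244, 385 and 498 CPM in HI 1, 2 and 3. Of these sums Tagln alone held 2.65 to 6.89 CPM in the controls and 52.4, 159 and 257 CPM in HI. Of the 10 genes 3 rose, the contractile genes Acta2, Tagln and Myh11, and no other was called by edgeR. Log2 fold changes were -0.14 for Higd1b, 0.13 for Notch3, 0.17 for Rgs5 and 0.35 for Abcc9. They were 0.71 for Vtn, 0.71 for Kcnj8 and 2.13 for Des. The part of this list in the level of Pdgfrb was not tested. Pdgfrl, a receptor-like gene without a kinase, had 11, 22 and 8 reads in controls 1, 2 and 3, then 17 and 16 in HI 1 and HI 2 and 74 in HI 3. Its log2 fold change of 1.12 ± 0.71 rested on HI 3 and was 0.09 without that library.

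Among the 4 ErbB receptors Erbb2 rose, and the fold changes of Egfr, Erbb3 and Erbb4 did not pass. Erbb2 encodes the receptor that binds no ligand itself and pairs with the others. It stood at 3.33, 4.42 and 3.74 CPM in the controls and at 6.95, 11.2 and 16.9 CPM in HI. The groups were apart, the log2 fold change was 1.61 ± 0.35, a 3.05-fold rise, and the edgeR adjusted p was 0.0358. Its deposited counts were not whole numbers (43.79 to 60.47 in the controls and 103.83 to 279.42 in HI), as when reads are divided between overlapping genes or copies, and its values are therefore uncertain. Egfr, the receptor for the epidermal growth factor group of ligands, had 33.0, 24.2 and 37.9 CPM in the controls and 30.1, 39.3 and 48.7 CPM in HI, with overlapping groups (edgeR adjusted p = 0.369). Erbb3, the kinase-impaired neuregulin receptor of oligodendrocyte lineage cells, had 9.54, 10.5 and 10.9 CPM against 8.96, 5.91 and 9.39 CPM. Erbb4, the neuregulin receptor of interneurons, had 6.51, 6.63 and 5.32 CPM against 4.95, 3.86 and 3.82 CPM. For both, all HI libraries were below all controls, by small steps, and log2 fold changes were -0.35 ± 0.23 and -0.55 ± 0.23, short of the threshold (edgeR adjusted p = 0.306 and 0.134). Markers of inhibitory neurons summed to 368, 462 and 1133 CPM in controls 1, 2 and 3 and to 1146, 848 and 526 CPM in HI 1, 2 and 3, and their part in the Erbb4 values was not tested.

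Of the ErbB ligands, Nrg3 fell. It encodes a neuronal neuregulin that signals through Erbb4. Its level was 56.0, 54.9 and 35.9 CPM in the controls and 25.0, 24.5 and 17.8 CPM in HI. The groups were apart with control 3 nearest to HI, and the log2 fold change was -1.12 ± 0.22 (edgeR adjusted p = 0.0308). Nrg2, a related ligand of neurons, had 8.63, 13.3 and 9.88 CPM against 6.62, 6.75 and 4.42 CPM, also without overlap. Its log2 fold change of -0.84 ± 0.26 did not pass (edgeR adjusted p = 0.0741). Nrg1, the ligand best known from axon and Schwann cell signalling, had 18.9 to 30.4 CPM in the controls against 17.0 to 24.5 CPM in HI (edgeR adjusted p = 0.623). The heparin-binding ligand Hbegf had 10.5 to 12.7 CPM and 11.2 to 14.5 CPM. Btc, which encodes betacellulin, had 2 to 11 and 10 to 13 reads. Tgfa, a ligand of Egfr abundant in the striatum, had 45.2, 25.0 and 134 CPM in the controls and 52.0, 55.8 and 43.8 CPM in HI. Control 3 thus stood far above all other libraries, and the log2 fold change turned from -0.43 ± 0.57 to 0.49 without it, passing in neither case (edgeR adjusted p = 0.613 and 0.258). Hbegf, Btc, Nrg1 and Tgfa all overlapped between the groups.

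The receptor Met had the largest fold change among the 40 tested genes by size. It encodes the hepatocyte growth factor receptor, which in the forebrain is enriched in cortical projection neurons during synapse formation. It drew 962, 1527 and 301 reads in controls 1, 2 and 3 against 92, 171 and 222 in HI 1, 2 and 3. In CPM these were 72.9, 112 and 22.5 against 6.15, 10.99 and 13.45. Control 3 was nearer to the HI libraries than to the other controls, although the groups did not overlap. The log2 fold change was -2.76 ± 0.60 (edgeR adjusted p = 0.0358), a fall to 0.147 of the control mean. Without control 3 it was -3.22 (edgeR adjusted p = 0.0181), and without HI 1 it was -2.51 and did not pass (edgeR adjusted p = 0.0504). The dorsal telencephalon list was low in the same libraries (1097, 1207 and 194 CPM in the controls and 100.2, 164 and 171 CPM in HI), with 4 of 8 genes called lower, and its part in the fall of Met was not tested. Hgf, the ligand, had 3.79, 3.83 and 2.77 CPM in the controls and 0.869, 1.48 and 5.03 CPM in HI. HI 1 and HI 2 were below all controls and HI 3 above them, with a log2 fold change of -0.49 ± 0.63 (edgeR adjusted p = 0.610) that became -1.55 without HI 3 (edgeR adjusted p = 0.080).

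None of the 3 VEGF family ligands passed by edgeR, with 1 at an unadjusted p below 0.05, 1 called by DESeq2 and 0 by limma-voom. Pgf, which encodes placental growth factor, had 11, 5 and 17 reads in controls 1, 2 and 3 and 25, 42 and 55 in HI 1, 2 and 3. All HI libraries were above all controls, and the log2 fold change of 1.63 ± 0.51 did not pass by edgeR (adjusted p = 0.0733) and did by DESeq2 (adjusted p = 0.0346). Vegfb ran from 30.8 to 34.8 CPM in the controls and from 31.6 to 37.4 CPM in HI, again with counts that were not whole, and its log2 fold change was 0.06 ± 0.12. Vegfc, the ligand of lymphatic vessel growth, had 26 to 34 reads in the controls and 20 to 50 in HI. Of the VEGF receptors and co-receptors Flt1, Kdr, Flt4, Nrp1 and Nrp2, 0 were called by edgeR, DESeq2 or limma-voom and 0 were at an unadjusted p below 0.05. Their log2 fold changes lay between -0.21 and 1.08. Endothelial markers summed to between 188 and 229 CPM in the controls and to 219, 338 and 443 CPM in HI 1, 2 and 3. Log2 fold changes of these 9 markers ran from 0.22 to 1.28. By edgeR 1 of 9 was called higher, with 5 at an unadjusted p below 0.05, 5 called by DESeq2 and 0 by limma-voom.

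The heparin-binding factors Mdk and Ptn differed in how their libraries spread. Mdk, midkine, stood at 11.5, 31.2 and 12.2 CPM in controls 1, 2 and 3 and at 25.0, 93.5 and 139.5 CPM in HI 1, 2 and 3. Control 2 was above HI 1, so the groups overlapped, and the log2 fold change of 2.23 ± 0.68 did not pass by edgeR (adjusted p = 0.0698) and did by DESeq2 (adjusted p = 0.00279). The libraries with the 3 highest values, HI 3, HI 2 and control 2, were also those highest in choroid plexus markers and in markers of meningeal and perivascular fibroblasts. The fibroblast sums were 62.2, 368 and 62.6 CPM in the controls and 277, 407 and 1120 CPM in HI 1, 2 and 3. With the choroid plexus list as a second term, the log2 fold change of Mdk was 0.69 (edgeR adjusted p = 0.180). Ptn, pleiotrophin, ran from 337 to 447 CPM in the controls and from 286 to 352 CPM in HI, with a log2 fold change of -0.30 ± 0.15 (edgeR adjusted p = 0.186). Alk, a receptor kinase for which both factors have been proposed as ligands, had 13.3, 5.23 and 27.0 CPM in the controls and 37.4, 19.6 and 7.27 CPM in HI. Each group spanned nearly the range of the other (edgeR adjusted p = 0.649). Fgfr1op, a centrosomal gene, and Fgfr1op2 had log2 fold changes of 0.41 ± 0.19 and 0.02 ± 0.10, neither of them past the threshold.

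**Figure D4:**
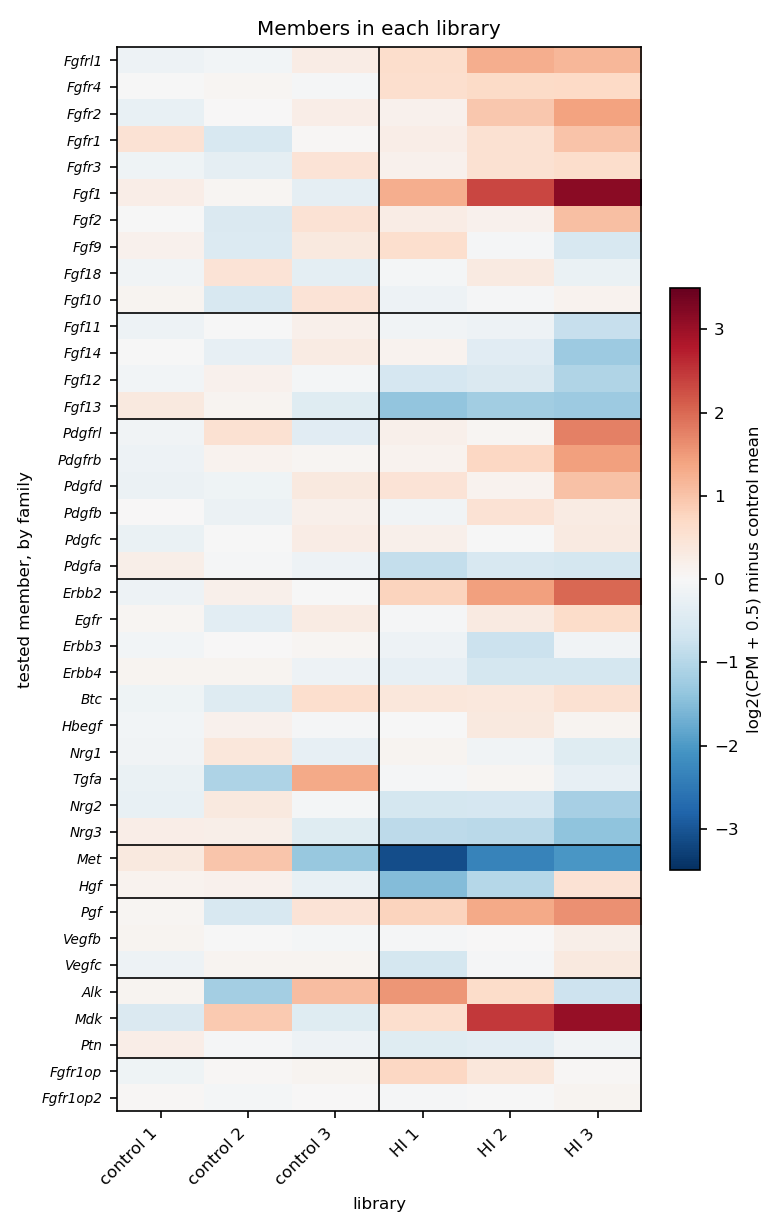
Level of the 40 tested genes in each library, as log2(CPM + 0.5) minus the control mean of that scale, with lines between families and between the groups. HI 3 is the library with the highest level for 18 of the 40 genes, and control 3 departs from the other controls in Tgfa and Met.

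HI 3 was the library that most often held the highest level of these genes. Its level was the highest of the 6 libraries for 18 of the 40 genes (45%), and for 32.8% of all tested genes. HI 2 was highest for 3 of the 40, and HI 1 for 3 (Fgf9, Fgfr1op and Alk, named here after their values were seen).

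Other genes of the same pathways were counted from lists that were chosen with earlier results of these data known. Of all 14959 tested genes 6.83% were called higher and 7.04% lower, and nothing about a list is read from its small counts. Of 13 co-receptors and binding partners 4 rose and 1 fell, and the median log2 fold change was 0.03. The heparan sulfate proteoglycan Sdc4 rose 3.15-fold, the hyaluronan receptor Cd44, a co-receptor of Met, 3.59-fold, and the plexin Plxnb2 1.84-fold, while the glypican Gpc1 fell to 0.626 of the control level (edgeR adjusted p from 0.0215 to 0.0352). Of 10 proteases and inhibitors that process such ligands 4 rose and 1 fell, with a median of 0.70. Adam17, the sheddase of Egfr ligands, rose 1.82-fold, the urokinase Plau by 3.58 on the log2 scale and the matriptase St14 4.53-fold, and Bace1, which cleaves neuregulins, fell to 0.652 (edgeR adjusted p from 0.0226 to 0.0384). Plau had a control mean of 0.546 CPM, which leaves the size of this change poorly fixed. Of 31 adaptors and transducers 3 rose and 5 fell, with a median of -0.15. Shc1 and Stat3 rose 2.28-fold and 2.17-fold, and Hras fell to 0.632 of the control level (edgeR adjusted p from 0.0215 to 0.0295). Of 25 feedback and target genes, such as the Sprouty inhibitors, 0 were called by edgeR and 0 by limma-voom, with 4 called by DESeq2 (28.1% of all genes) and 10 at an unadjusted p below 0.05 (36.5% of all genes). Their median was 0.08.

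Which of the 8 genes passed depended on the libraries in the fit. None passed without control 1, without control 2 or without HI 2, where the edgeR adjusted p of the 8 genes ran from 0.0850 to 0.123, from 0.0929 to 0.128 and from 0.0832 to 0.106. Among all tested genes 0, 1 and 0 were called in these fits, where 11, 10 and 11 of the 40 genes had an unadjusted p below 0.05, as did 3962 of 15321, 4008 of 15322 and 4175 of 15151 of all genes. Without HI 3 only Fgf13 was called (edgeR adjusted p = 0.0473). Without control 3 the calls of Fgf1, Erbb2 and Fgf12 were lost (edgeR adjusted p = 0.0596, 0.0710 and 0.0612). Without HI 1 that of Met was lost, and Fgfr2, Pdgfrb and Mdk were called as higher (edgeR adjusted p = 0.0194, 0.0275 and 0.0216). Each of the 8 kept its sign in every fit, which groups without overlap make certain or nearly so. Limma-voom called 5 of the 40 genes and 9.17% of all genes, without Fgf1, Erbb2 and Met (adjusted p = 0.0727, 0.0651 and 0.0760). DESeq2 called 13 of the 40 genes and 28.1% of all genes, adding Fgfr2, Mdk, Nrg2, Pdgfrb and Pgf.

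The libraries with and without Y-linked reads were also compared apart, as log2 ratios of mean CPM with no test, because 1 side of each comparison is a lone library. HI 1 was set against controls 1 and 2, which lack such reads, and HI 2 and HI 3 against control 3. In the libraries without Y-linked reads the ratio was 1.23 for Fgf1, 0.84 for Erbb2 and 0.78 for Fgfrl1, and with them it was 3.37, 1.91 and 0.97. For the falling genes the pairs of values were -1.60 and -0.82 for Fgf13, -0.64 and -0.68 for Fgf12, -1.15 and -0.76 for Nrg3, -0.93 and -0.42 for Pdgfa, and -3.91 and -0.88 for Met. The sign was the same on either side for each of the 8 genes, as it had to be, since no HI library overlapped a control in any of them. The sizes differed most for Met and Fgf1. With Y-linked reads as a second term of the edgeR fit, Fgf13, Fgfrl1 and Nrg3 were called (adjusted p = 0.0445, 0.0409 and 0.0489) and the other 5 genes were not. With the choroid plexus list as the second term none was called by edgeR (adjusted p from 0.0607 to 0.171), 59 of all tested genes were called. An unadjusted p below 0.05 was then held by 13 of the 40 genes and by 3462 of all 14959. The log2 fold changes of Fgf1, Erbb2 and Met were then 1.69, 0.998 and -3.59. Both terms were added after the data were seen.

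**Figure D5:**
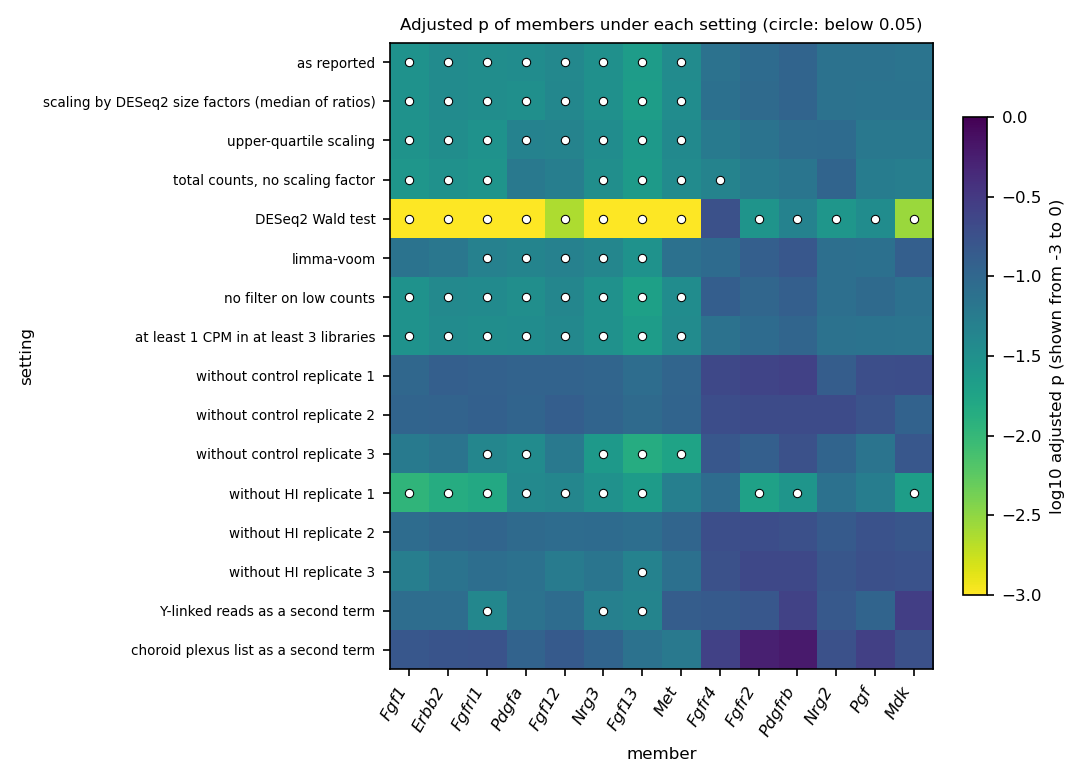
Adjusted p (colour, log10, shown from -3 to 0) of the 14 genes called in at least 1 of the settings shown, in columns, under each setting, in rows. Circles mark values below 0.05, and the rows without control 1, without control 2, without HI 2 and with the choroid plexus term have none.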

How the data were processed

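RNA sequencing of rat brain tissue gave 6 libraries, 3 control and 3 HI. TRIzol extraction and a SMARTER mRNA-Seq kit are recorded per the labels' protocols. HISAT2 2.1.0, SAMtools 1.10, StringTie 2.2.1 and the build Rnor 6.0 are named in the submitters' processing notes. How reads were counted, on which annotation and strand, is not given in the sources used here. Values as deposited were estimated counts per gene, unscaled, of which 8.87% of entries were not whole (to 1e-09). 1 column header lacks a letter and was matched to control 1. No pair of libraries was a duplicate (chi-square per degree of freedom 13.4 to 162).

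Counts were rounded, filtered with filterByExpr (minimum count 10), scaled by TMM and tested with the edgeR 4.0.16 quasi-likelihood F test (limma 3.58.1, DESeq2 1.42.0, R 4.3.3) on all 6 libraries, two-sided, without a covariate. P-values were adjusted over 14959 genes. The SE was derived from the F statistic, and the biological coefficient of variation was 0.275. On simulated data of 14857 genes with that spread, this test called 97% of genes changed 4-fold and 25.5% of those changed 2-fold. The simulation gave every gene the same spread and changed only 98 genes 2-fold and 100 genes 4-fold. Its shares therefore do not apply to genes that scatter more, as several described here do. Errors of levels are given by the value in each library, and intervals and floors cover counting error only.

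The genes described and the lists were chosen with earlier results of these data known. Values in every library are given for each gene past the threshold, each tested receptor, and tested ligands with an absolute log2 fold change of at least 1 or groups apart. From each pathway list up to 4 called genes with the smallest p are named, except 1 that is not reported here. Alternatives were 3 other scalings, DESeq2, limma-voom, no filter, a filter of 1 CPM in 3 libraries, a threshold of 0.1, leaving out each library, and a block for the replicate number. Promoter sequences come from RefSeq, build GRCr8, which is not the build of the counts.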

Additional observations from a re-analysis of the deposited data

How the results depend on the processing

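The 8 genes past the threshold kept their sign in 16 alternative settings but not their calls. DESeq2 called 4200 genes over the whole table, 7 of the growth factor genes as higher, limma-voom 1371 genes with 1 of them higher, and a threshold of 0.1 gave 4366 genes and 7 higher. On total counts 3 were lower. With the replicate number as a block, 1723 genes passed, with 2 of the growth factor genes higher and 3 lower, and Fgf1, Met and Pdgfa were lost. The labels do not say whether the numbers pair the samples. Deviations of same-numbered libraries correlated at 0.228, 0.0816 and -0.156, and those of differently numbered libraries at -0.357 to 0.328. These few correlations cannot decide it. Leaving out 1 library gave 0 to 3689 genes (2074 with all libraries), 0 to 6 higher and 0 to 4 lower. Y-linked reads as a second term, added after seeing the data, left 774 genes, 1 higher and 2 lower, and the choroid plexus term 59 genes, 0 higher and 0 lower, with 7 and 6 at an unadjusted p below 0.05. The share of calls that were higher was 49.2% with TMM, 64.3% with upper-quartile scaling and 74.7% on total counts, where the median of all genes was 0.04, 0.14 and 0.23. Between these fits only the scaling differed. The TMM factors were 0.922 to 0.960 in the controls and 1.045 to 1.107 in HI. Which scaling suits these libraries was not tested, nor was the cause of the other changes.

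Log2 fold changes turned in sign for 11 genes that did not pass. Over the fits that leave out 1 library they ran from -0.051 to 0.047 for Fgfr1op2 (0.02 with all libraries), from -0.28 to 0.35 for Fgf18 (-0.02), from -0.36 to 0.18 for Vegfc (-0.07), from -0.54 to 0.28 for Fgf10 (-0.14), from -0.34 to 0.035 for Nrg1 (-0.17), from -0.36 to 0.29 for Fgf9 (0.04), from -0.86 to 0.49 for Tgfa (-0.43), from -0.015 to 0.11 for Vegfb (0.06) and from -0.18 to 1.18 for Alk (0.50). DESeq2 size factors gave -0.0064 and the DESeq2 Wald test -0.0060 for Fgfr1op2. Upper-quartile scaling gave 0.070 for Fgf18 and 0.034 for Vegfc. Total counts gave 0.17 for Fgf18, 0.13 for Vegfc, 0.049 for Fgf10 and 0.021 for Nrg1. Limma-voom gave 0.014 for Fgf18, 0.021 for Fgf10 and -0.023 for Fgf9. Without a filter Fgf9 had -0.00031 and Fgfr1op2 -0.028. The replicate block gave 0.018 for Fgf18. The Y-linked term gave 0.10 for Fgf18 and -0.0079 for Fgfr1op2. The choroid plexus term gave 0.30 for Fgf10, 0.057 for Fgf14, -0.027 for Hbegf, 0.51 for Tgfa and -0.0052 for Vegfb. Depth limits the 15 untested genes and Fgf2, Fgf10, Fgf18, Fgfr4 and Btc, which had under 30 reads in every library.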
